A study of Arabidopsis thaliana with 26 samples.

Results

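The 1273 restriction fragments described here carry annotated genes of the chromosome arms and had almost no RNA signal and little of 3 histone modifications. They are a subset of the 66846 fragments into which HindIII cuts the 5 Arabidopsis chromosomes, and of the 32621 fragments with a gene on the same arms. Members were chosen by density, the percentage of a fragment's bases covered by published sequencing reads (deposited values pass 100 in places). The rule asked for at least 1 annotated gene, a transcription density under 1, densities of H3K27me3, H3K36me3 and H3K9me2 under 10, and at least 2.5 Mb to the centromere, with the short arms of chromosomes 2 and 4 left out. The members made up 3.38% to 4.81% of the gene fragments of the 8 remaining arms, 110 of them on the right arm of chromosome 3 and 213 on the right arm of chromosome 5. The transcription density was 0 in 1243 members, and all 4 densities of the rule were 0 in 633. These 4 densities define the members and are no result.

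H3K27me3 is the mark of Polycomb repression and covers many developmental genes of plants, H3K36me3 lies along the bodies of transcribed genes, and H3K9me2 marks heterochromatin and transposons. A fragment without RNA and without these marks thus lies outside the states that these marks define. The rule was applied to fragments and not to whole genes, and a member can be a short piece of a gene. The word silent therefore describes the fragment here, and RNA from the rest of its gene was not examined. Genes used only in pollen, in seed or under stress are often silent in leaves. H3 density stands for nucleosomes in general, H3K18Ac is an acetylation found at active genes, and H3K27me1 is a mark of silent chromatin and of chromocentres.

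Contacts were measured by 4C. This assay fixes, digests and religates chromatin, and then amplifies and sequences whatever DNA became joined to a single bait fragment, the viewpoint. The 26 libraries came from aerial tissue of wild-type Col-0 seedlings of 14 days, with biological replicates A and B for each of 13 viewpoints. No genotype or treatment was compared, and the viewpoints are the groups. A first batch held the floral and flowering genes AG and FLC, FWA, PHE1, FIS2 and CKI1, all cut with DpnII as second enzyme, and a neighbouring pair of fragments at MEA, MEA F6 and MEA F8. A later batch held AT1G51860, AT3G44380, hk4s, which is the heterochromatic knob of chromosome 4, and SWN and YAO on either side of it. NlaIII was the second enzyme of the later batch and of the MEA pair.

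Reads at HindIII ends numbered 501056 to 6549825 per library, and 254749.8 to 3370541 of them lay on fragments that passed the filters (median 720403.5). Contact is given as reads per 1000000 of these reads (RPM), only on fragments outside the arm of the viewpoint, where 69788 to 1561372 reads were counted. A filter on second-enzyme sites left 755 members for NlaIII viewpoints and 768 for DpnII viewpoints, which is 59.3% and 60.3% of the members against 83.6% and 85.3% of the other gene fragments. Both enzymes left 653 members. Since 4C reads are amplified and carry no molecular identifiers, the error was taken from replicates and viewpoints and not from read numbers.

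The members were short. Their median length was 370 bp, against 1157 bp for the other 31348 gene fragments of the arms, and 393 members were under 100 bp while 393 reached 1 kb or more. Of the members, 935 (73.4%) lay wholly inside 1 gene. An annotated transposable element overlapped 11.2% of members and 11.3% of other gene fragments. Their median GC content was 36.03%, against 38.2%. The shortest were 11 members of 12 bp, of which the one in AAO3, a gene of abscisic acid synthesis, is shown in full to make clear that such a fragment is nothing but a pair of adjacent HindIII sites (capitals), with no room for a 4C read:
AAO3, chr2:11604137-11604148: AAGCTTAAGCTT

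A second kind of member did not carry unique sequence. Of the 1126 members of at least 30 bp, 138 (12.3%) had 50% or more of their 30-base words at another place of the genome, against 287 of 30987 other gene fragments (0.926%). Among fragments with 95% or more repeated words, the 112 members had a median input density of 0 and a median H3 density of 0, whereas the 95 other gene fragments had medians of 66.4 and 86.9. Deposited genomic DNA reads were found on both, with medians of 7.94 and 9.35 per fragment. For such members the absence of RNA and marks stands beside an absence of input and H3, so that these values do not show them to be silent. The methods describe the densities as coverage by uniquely alignable reads. They also state that ChIP and RNA reads with several matches were processed, with a set allocation distance for each kind. Repeated fragments outside the members had high densities, and the part of read alignment and allocation in this was not tested. Input was 0 in 274 members, 195 of them under 100 bp. Under 5% of repeated words were found in 880 members, whose median input density was 35.3 and median H3 density 47.7.

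**Figure D1:**
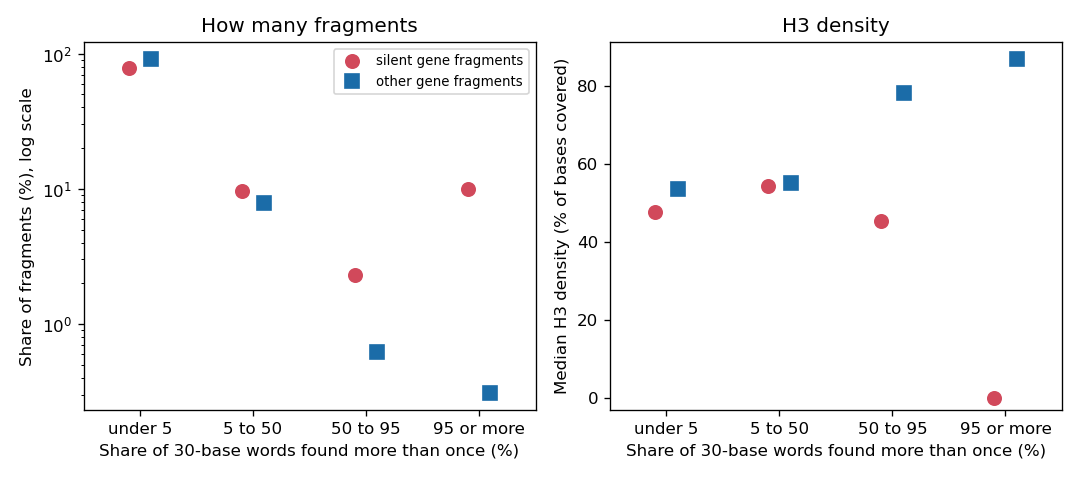
Left, share of fragments (log scale) by the percentage of their 30-base words that occur more than once in the genome, for silent gene fragments (circles) and other gene fragments (squares). Right, median H3 density of the same classes. In the class of 95% or more, which held 9.95% of the members and 0.307% of the other fragments, the median H3 density was 0 in members and 86.9 in the others.

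Repeated members often lay side by side. The longest run of neighbouring members had 20 fragments over 34.3 kb of chromosome 1 (chr1:21272093-21306347, TAIR10). It contained 69 genes, all for transfer RNAs, which carry amino acids to the ribosome. The genes were ordered in 23 units of tyrosine, tyrosine and serine tRNA. The 46 tRNA-Tyr genes had 14 distinct sequences and the 23 tRNA-Ser genes had 7, and between 94.0% and 100% of the words of each fragment were repeated. The commonest sequence of each kind is shown, with the intron of tRNA-Tyr in capitals:
AT1G56810, tRNA-Tyr, chr1:21272570-21272654, plus strand: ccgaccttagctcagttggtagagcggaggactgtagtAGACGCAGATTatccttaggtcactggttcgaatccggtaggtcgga
AT1G56820, tRNA-Ser, chr1:21273314-21273395, plus strand: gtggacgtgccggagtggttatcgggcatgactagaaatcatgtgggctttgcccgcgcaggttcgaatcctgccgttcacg
Input density in this run was 0 in 1 fragment and ranged up to 72.8 with a median of 20.5, H3 was 0 in 8 fragments and at most 45.2, and H3K27me1 was above 0 in 8 fragments and reached 23.1. The run's mean contact was 0 RPM in the lowest, 2.89 RPM in the median and 6.33 RPM in the highest of 22 libraries.

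The next run, 10 fragments over 34.2 kb of chromosome 4 (chr4:11050767-11084949), held a tandem array of genes for cysteine-rich repeat secretory-like proteins, AT4G20540 to AT4G20630. The first 9 fragments were identical over all their 3265 bases. The left ends of 2 neighbours are shown (HindIII site in capitals), since the 4C reads of identical ends cannot be told apart:
AT4G20540, chr4:11050767-11050826: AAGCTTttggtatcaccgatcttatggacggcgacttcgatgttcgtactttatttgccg
AT4G20550, chr4:11054026-11054085: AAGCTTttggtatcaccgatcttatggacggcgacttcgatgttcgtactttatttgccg
Input and H3 were 0 in 6 of the 10 fragments, and the run's mean contact was 0.698, 6.32 and 17.0 RPM in the lowest, median and highest of 22 libraries.

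A pair of runs of 9 fragments each on chromosome 5 (chr5:20578088-20588372 and chr5:20611430-20621714) were copies of one another, with all 9 fragment pairs identical. They carry SPL13A and SPL13B, transcription factors of the SQUAMOSA promoter-binding family that act in the change from juvenile to adult leaves, the gene pair for SAE1B, a subunit of the SUMO-activating enzyme, and the hydroxysteroid dehydrogenase genes HSD4 and HSD7. The first fragment of each run is shown whole:
copy 1, chr5:20578088-20578147: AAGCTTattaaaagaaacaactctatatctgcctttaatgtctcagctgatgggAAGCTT
copy 2, chr5:20611430-20611489: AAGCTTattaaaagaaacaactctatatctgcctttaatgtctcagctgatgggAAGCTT
All densities, input included, were 0 in all 18 fragments, while genomic DNA reads were 3.12 to 14.6 per fragment in copy 1 and 3.88 to 16.4 in copy 2. Mean contact was 1.97, 6.82 and 26.3 RPM in the lowest, median and highest library for copy 1, and 1.78, 5.06 and 18.6 RPM for copy 2. The last of the 5 longest runs had 8 fragments on chromosome 1 (chr1:21804025-21812648) with AT1G58936 to AT1G59077, all words repeated, input at 0 throughout and mean contacts of 0.927, 2.10 and 9.44 RPM. In all, the members formed 997 runs, of which 832 were single fragments.

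Of the 1433 reference genes on members, 1276 coded for proteins and 81 for tRNAs (5.65%, against 1.82% of the 26109 genes on other gene fragments), 69 of the latter in the array on chromosome 1. Genes for small cysteine-rich proteins, which include defensins and gamete signals, numbered 51 (3.56% against 1.51%), and genes for self-incompatibility and pollen proteins 13 (0.907% against 0.295%). A single member, of 45.3 kb on chromosome 5, overlaps 17 ECA1 gametogenesis related genes, and ECA1 is a word of the former class. Genes matched by words for receptor-like kinases and proteins (24, 1.67% against 0.697%) and for disease resistance (25, 1.74% against 0.659%) also had larger shares. The words also match genes of other kinds, such as RLP5 and RLP9, which are named receptor like proteins. BRX is matched by the name of its domain. Shares of F-box proteins (1.61% against 1.92%), cytochrome P450s (0.977% against 0.789%), cell wall enzymes and extensins (1.26% against 1.02%) and the listed families of transcription factors (2.37% against 1.80%) were nearer to each other. Seed storage, oleosin and late embryogenesis proteins had 7 genes (0.488% against 0.689%), pseudogenes 6 (0.419% against 0.735%), long non-coding RNAs 42 (2.93% against 6.89%) and hypothetical proteins 29 (2.02% against 1.06%). A gene is counted in each set in which it has a fragment. These shares are descriptions without a test, and many of these families lie in tandem copies.

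The question for contact was whether silent gene fragments were met by the viewpoints as often as other gene fragments. They were met slightly less often. For each library, members were compared with the other gene fragments in the same strata of arm, length and distance to the centromere, using means with single fragments limited to the library's 99th percentile. The mean over members ranged from 5.28 to 10.03 RPM in the 26 libraries, and that of the comparison fragments from 5.85 to 11.5 RPM. Averaged over 13 viewpoints, contact with members was 0.866 of that with other gene fragments (mean log2 ratio -0.21 ± 0.066, SD, n = 13 viewpoints), and the ratio was below 1 in all 26 libraries. The exact two-sided sign-flip permutation test gave p = 0.000244, the smallest value 13 viewpoints can give, and 0.000366 after Benjamini-Hochberg adjustment over 3 comparison classes. All viewpoints are measured on the same fragments, so a property of these fragments that alters their read numbers would be shared by every viewpoint.

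The largest differences were seen from MEA F8, with 7.06 RPM on members against 8.73 RPM (log2 ratio -0.38 in replicate A and -0.25 in B), from AT3G44380 with 6.83 against 8.28 RPM (-0.45 and -0.12) and from PHE1 with 7.44 against 8.98 RPM (-0.29 and -0.26). The smallest were seen from CKI1, near the end of chromosome 2, with 9.45 against 10.2 RPM (-0.099 and -0.12), and from AG with 6.46 against 7.02 RPM (-0.17 and -0.071). The replicates of AT3G44380 lay farther apart than those of any other viewpoint (SD 0.23). The remaining viewpoints lay between these values, at log2 ratios of -0.27 for YAO, -0.24 for FWA, -0.23 for FLC, -0.21 for FIS2, -0.17 for MEA F6, SWN and hk4s, and -0.14 for AT1G51860. MEA F6 and MEA F8 are neighbouring fragments, and their difference of -0.17 to -0.31 shows how far viewpoints at one place can differ.

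**Figure D2:**
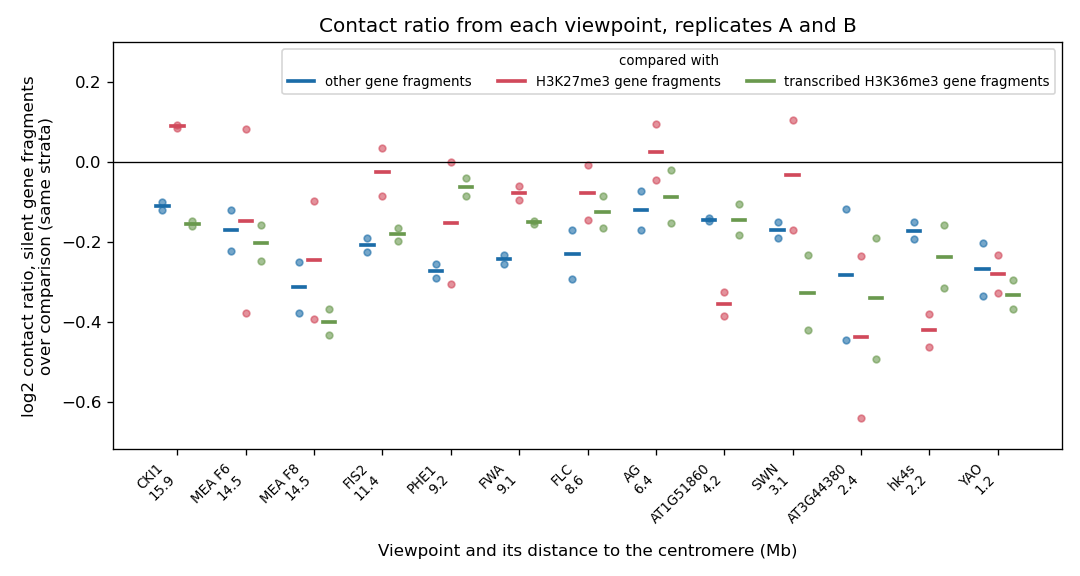
Log2 contact ratio of silent gene fragments over 3 kinds of comparison fragments, for 13 viewpoints ordered by their distance to the centromere. Points are replicates A and B, short lines their mean, and 0 is equal contact. Against other gene fragments all 26 points lie below 0, between -0.45 and -0.071.

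The position of the viewpoint made no detectable difference. Over 13 viewpoints the ratio and the distance from viewpoint to centromere gave r = 0.059 (permutation p = 0.845) and rho = 0.13 (p = 0.683). When YAO and CKI1 were left out, which lie farthest from the median distance, r was -0.34 (p = 0.298, n = 11), so the sign rests on those viewpoints. For the 8 viewpoints of the first batch alone r was 0.047 (p = 0.909 by exact permutation), and the later batch had too few viewpoints for a correlation. The mean log2 ratio was -0.21 ± 0.071 (SD) for 8 viewpoints of the first batch and -0.21 ± 0.063 for 5 of the later batch, a difference of -0.0016 (exact permutation p = 0.967). DpnII and NlaIII viewpoints differed by 0.020 (exact permutation p = 0.600).

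The share of fragments with reads did not show the difference. Between 29.0% and 90.6% of members carried at least 1 read in a library, against 28.2% to 91.5% of the comparison fragments in the same strata, and the mean log2 ratio of these shares was 0.012 (exact permutation p = 0.291, below 0 for 6 of 13 viewpoints). On fragments with at least 1 read the log2 ratio of contact was -0.21. Of the 653 members kept with both enzymes, 18 (2.76%) had reads in every library outside the viewpoint arm, against 1.07% of all gene fragments. None of the 653 was without a read in all these libraries (0 of 653, which allows a share of up to 0.459% by 3 counts), against 0.016% of all gene fragments. The counts over the 653 members were not matched for length or repeated words, and reads with several matches were shared by weight. The part of this in the counts was not tested.

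Other values moved with the difference in contact. Published input reads were lower on members than on the same comparison fragments, by a log2 ratio of -0.43 to -0.37, while the genomic DNA reads, which the authors processed like 4C reads, were level (0.0093 to 0.040). For the 753 members seen from SWN, hk4s and YAO, GC content was 35.4% against 38.2% in the comparison fragments, and mean length 1729 bp against 1840 bp. With 20 length classes the lengths were 1745 and 1694 bp and the log2 ratio was -0.17. With strata also by input density, by GC content or by H3 density it was -0.17, -0.18 and -0.18, and for fragments with under 5% of repeated words -0.17, each below 0 for all 13 viewpoints. These settings were chosen after seeing the data. With only fragments whose genomic DNA reads per kb were within 2-fold of the median the log2 ratio was -0.10 and below 0 for 10 of 13 viewpoints (exact permutation p = 0.00415), and with genomic DNA reads per fragment within 2-fold of the median it was -0.19. Members with under 5% of repeated words had a median of 9 genomic DNA reads at a median length of 387 bp, and those of 1 kb or more had 10. A limit per kb thus also selects by length, and 337 of the 1273 members met it. The part of input and base composition in what remained was not tested.

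In the main strata the difference was larger in long fragments. Members of 1 kb or more had 0.811 of the contact of comparison fragments (log2 ratio -0.30 ± 0.11, below 0 for 13 of 13 viewpoints), and members under 1 kb had 0.959 (-0.061 ± 0.100, 12 of 13, exact permutation p = 0.0498). These length limits were also chosen after seeing the data, and the short classes rest on few of their members: of 526 under 200 bp, 86 were kept for NlaIII and 96 for DpnII. The difference between both was -0.24 ± 0.17 (12 of 13 viewpoints, exact sign-flip permutation p = 0.000488). By class, the log2 ratio was -0.17 under 200 bp, 0.045 from 200 to 500 bp (exact permutation p = 0.508), -0.10 from 500 bp to 1 kb (p = 0.115), -0.19 from 1 to 2 kb, -0.26 from 2 to 4 kb and -0.40 for the 61 members of 4 kb or more. In this last class the median viewpoint had 11.0 RPM on members against 13.5 RPM. The length strata are quintiles of the members, so all fragments of 2 kb or more share the top one. Within it, length was not matched further, except by the limits of each class. Among fragments of 1 kb or more seen from SWN, hk4s and YAO, members averaged 2891.5 bp and comparison fragments 3085.6 bp. For members of 1 kb or more with unique sequence, in 20 length classes and strata of GC content, the log2 ratio was -0.15 (9 of 13 viewpoints, exact permutation p = 0.00488), a smaller value than the -0.30 for all members of this length. Members under 1 kb were not run in this setting.

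The difference was also larger nearer to the centromeres. The 294 members at 2.5 to 5 Mb had a log2 ratio of -0.30 ± 0.14, the 595 members at 5 to 10 Mb -0.28 ± 0.097, and the 384 members at 10 Mb or more -0.078 ± 0.098 (SD, 13 viewpoints each). The first and the last class differed by -0.22 ± 0.17, in the same direction for all 13 viewpoints (exact sign-flip permutation p = 0.000244). As for length, all viewpoints were measured on the same fragments, so this test is over viewpoints and does not cover the choice of fragments. The distance classes were not repeated with unique sequence or in strata of GC content.

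**Figure D3:**
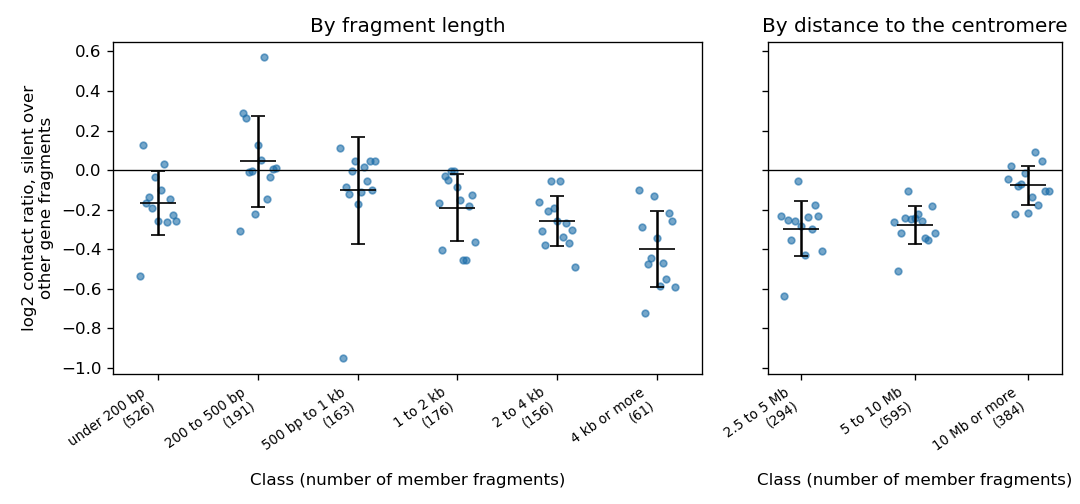
Log2 contact ratio of silent over other gene fragments by fragment length (left) and by distance of the fragments to the centromere (right). Points are 13 viewpoints, horizontal lines their mean and bars 1 SD, with the number of members in brackets. The mean was -0.40 for fragments of 4 kb or more and -0.078 for fragments at 10 Mb or more from the centromere.

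Arm by arm, the ratio was lowest on the right arm of chromosome 4 (0.782, log2 ratio -0.35 ± 0.11, below 0 for all 11 viewpoints outside that arm) and highest on the left arm of chromosome 1 (0.961, -0.058 ± 0.11, 7 of 11 viewpoints). The right arms of chromosomes 1, 3 and 5 had log2 ratios of -0.26, -0.29 and -0.30, below 0 for every viewpoint outside them. The right arm of chromosome 2 (-0.15, 10 of 11), the left arm of chromosome 3 (-0.14, 11 of 13) and the left arm of chromosome 5 (-0.22, 9 of 12) had exceptions. Differences between arms were not tested.

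Silent gene fragments can also be set against fragments of one chromatin state. Against 3930 gene fragments with H3K36me3 and transcription densities of 50 or more, the log2 ratio was -0.21 ± 0.11, below 0 for 13 of 13 viewpoints (exact permutation p = 0.000244, adjusted 0.000366). Against 767 Polycomb-type gene fragments, with an H3K27me3 density of 50 or more and H3K36me3 under 10, it was -0.16 ± 0.17, below 0 for 11 of 13 viewpoints (exact permutation p = 0.00464, adjusted 0.00464). The latter value depended on the viewpoint. It was 0.090 from CKI1 and 0.026 from AG, but -0.44 from AT3G44380, -0.42 from hk4s and -0.36 from AT1G51860, and -0.032 from SWN. Without the limit on single fragments the mean was -0.43. For the 6 DpnII viewpoints, all of the first batch, it was -0.036 ± 0.086, and for the 7 NlaIII viewpoints, MEA F6 and MEA F8 of the first batch among them, -0.27 ± 0.15. Within the first batch it was -0.036 for DpnII and -0.20 for the MEA pair (exact permutation p = 0.107), and within NlaIII -0.20 for the MEA pair and -0.31 for the later batch (exact permutation p = 0.429). The MEA pair is 1 place in the genome, and every viewpoint of the later batch lay nearer to its centromere than any of the first, so batch and distance cannot be told apart.

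The 10 members with the highest contact reads were longer than most. The first, of 8.0 kb at the tip of chromosome 1 (chr1:432082-440034), carries NAC004 and NAC005, transcription factors of the plant-specific NAC family. It had reads in all 22 libraries outside its arm, from 1.92 RPM in AT3G44380 B to 110 RPM in PHE1 A, with a median of 47.4 RPM. Its ends, where 4C reads start, are shown with the HindIII sites in capitals:
NAC004 left end, chr1:432082-432141: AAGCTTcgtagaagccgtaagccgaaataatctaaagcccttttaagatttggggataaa
NAC004 right end, chr1:439975-440034: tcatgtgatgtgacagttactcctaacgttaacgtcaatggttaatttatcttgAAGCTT
Replicates of a viewpoint differed widely on this single fragment, for example 7.74 and 65.6 RPM from YAO, and 61.3 and 57.9 RPM from FIS2. Its median over viewpoints on the log2(RPM + 1) scale, 4.93, was above 96.8% of 1321 other gene fragments of like length.

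The fragment of AT3G62990, which also touches TIR1, the receptor of auxin, had 0, 29.1 and 212 RPM in the lowest, median and highest of 24 libraries. LOG5, of the family that activates cytokinin, had 0, 27.7 and 94.1 RPM, and AT1G77765, of unknown function, had 0, 22.9 and 352 RPM, the highest in MEA F6 A. AT1G09880, a rhamnogalacturonate lyase of pectin breakdown, had 4.64, 19.9 and 51.6 RPM and was never at 0. ABCB11, a transporter of the P-glycoprotein family, had 0.930, 20.9 and 73.9 RPM, and UGT74E2, which glycosylates an auxin, had 0, 20.2 and 45.8 RPM. The neutral invertase gene A/N-InvF, whose product splits sucrose, had 1.60, 18.4 and 120 RPM. AT5G50530 had 0, 14.2 and 58.5 RPM over 26 libraries, but all its words were repeated elsewhere, and its H3 density was 0 at an input density of 74.9. SPIK, a potassium channel of pollen, had 0, 14.5 and 48.1 RPM. Of these 10 fragments, 6 lie on chromosome 1 and 4 of them on its left arm. Of all 1273 members, 170 lie on the left and 200 on the right arm of this chromosome. They were chosen by their reads, so their levels are a description.

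**Figure D4:**
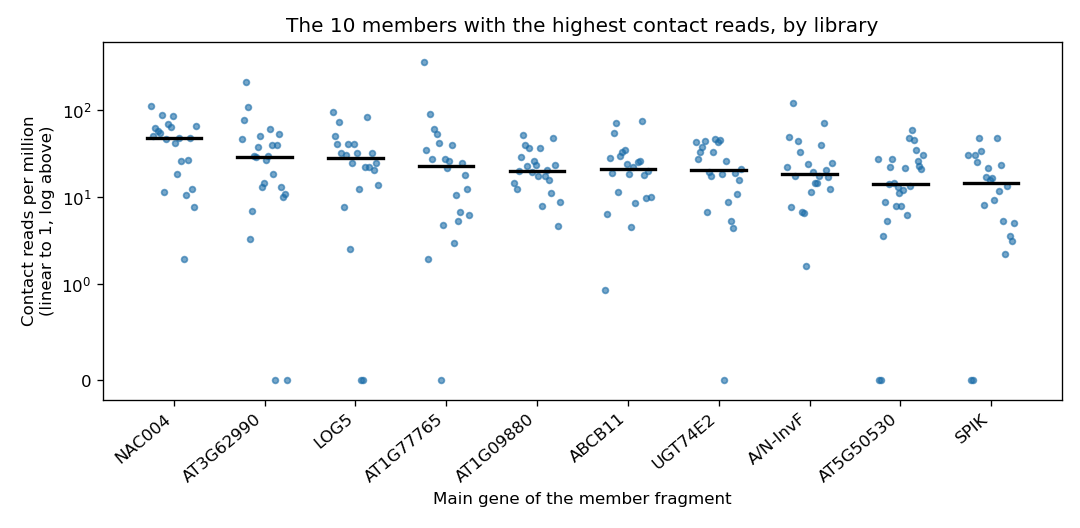
Contact in RPM on the 10 members with the highest median over viewpoints, in each library outside the arm of its viewpoint (points, axis linear to 1 and logarithmic above), with the median over libraries as a line. Medians run from 47.4 RPM for NAC004 to 14.2 RPM for AT5G50530, and single libraries of one fragment spread from 0 to over 100 RPM.

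Across the 653 members, contact rose with length (Spearman rho 0.36, against 0.53 over 24293 other gene fragments) and, less, with distance to the centromere (0.18 against 0.21). With H3K27me1 density rho was 0.20 in members and 0.14 in the others, with H3 0.11 and -0.089, and with H3K18Ac 0.082 and -0.060. Contact and genomic DNA reads were not related in members (rho -0.0036). These correlations are over fragments of the same libraries and share fragment length, so they are descriptions only, and the weak ones are no finding.

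H3 and H3K18Ac covered less of the members than of other gene fragments, and H3K27me1 more. Median H3 density was 44.4 in members (quartiles 21.7 and 62.7) against 53.9 in other gene fragments, and median H3K18Ac density 39.0 against 48.3. In the same strata of arm, length and distance, mean H3 density was 43.0 against 55.2, a difference of -12.2 percentage points, and mean H3K18Ac density 40.1 against 51.8, a difference of -11.7. Both were lower on all 8 arms, with differences of -19.1 to -4.02 points for H3 and -17.7 to -2.97 points for H3K18Ac. Without matching for length, H3 was 0 in 17.7% of the members and in 1.12% of the others. Against Polycomb-type fragments in the same strata, H3 was 43.2 against 60.4 and H3K18Ac 40.4 against 67.2, and against transcribed H3K36me3 fragments H3 was 43.0 against 64.7 and H3K18Ac 40.03 against 57.8. Each density comes from 1 published library, so there is no replicate error and no test.

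The H3K27me1 density had a median of 0 in members and 0.971 in other gene fragments, but the upper quartile was 8.22 in members against 3.78. Its mean was 5.88 in members and 2.87 in comparison fragments of the same strata, a difference of 3.01 points that ranged from 1.31 to 4.60 over the 8 arms. Over all fragments, without matching for length, more members than others had no H3K27me1 at all (54.1% against 46.4%), although the upper quartile was higher. Members were shorter (median 370 bp against 1157 bp), and the part of length in these shares and quartiles was not tested. Against Polycomb-type fragments in the same strata the means were 5.96 and 1.56, and against transcribed H3K36me3 fragments 5.89 and 2.45.

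**Figure D5:**
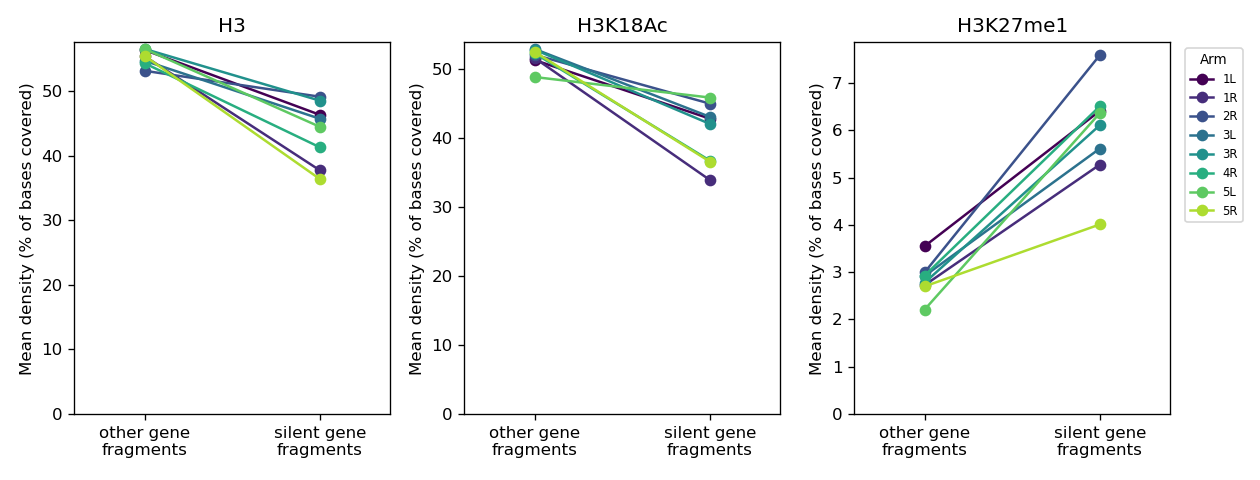
Mean density of H3, H3K18Ac and H3K27me1, in percent of bases covered, on other gene fragments (left points, weighted to the members' strata) and on silent gene fragments (right points), 1 line per chromosome arm. H3 and H3K18Ac were lower and H3K27me1 higher in members on all 8 arms.

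Input moved in the same direction as H3: its mean was 32.5 in members against 42.0, a difference of -9.50. Restricted to 253 members of 1 kb or more with under 5% of repeated words and an input density of 20 or more, a setting chosen after seeing the data, the difference was -6.11 for H3, -3.78 for H3K18Ac and 3.96 for H3K27me1, with input itself still lower by 4.01 points. The differences of H3 and H3K18Ac were smaller there, and that of H3K27me1 was not. The part of read coverage in the lower densities was not tested.

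Marks of active genes that the rule had not used were far lower in members. In the same strata, mean H3K4me3 density was 7.68 in members against 29.6, H3K9Ac 4.78 against 17.9, H3K4me2 22.5 against 42.5 and H3K36me2 20.7 against 38.4. All were lower on all 8 arms. For the first 3 marks members also lay below Polycomb-type fragments, which had 11.1 for H3K4me3, 7.13 for H3K9Ac and 27.1 for H3K4me2. For H3K36me2 the members' mean was higher than that of Polycomb-type fragments (20.3 against 11.8). Among the 393 members of 1 kb or more the H3K36me2 mean was only 10.9, and Polycomb-type fragments of that length were not compared. These marks go along with transcription, which the rule limits.

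Single members stood out by density. The highest H3K27me1 density among members of 1 kb or more was 74.2, on a fragment of 1354 bp with the F-box gene AT1G11270, which also had the highest H3 density (100.1), an H3K18Ac density of 63.5 and an input of 98.8, and whose words were all repeated. It had reads in all 22 libraries (4.65, 8.92 and 39.7 RPM in the lowest, median and highest). The next by H3K27me1 were AT3G61030, a calcium-dependent lipid-binding protein gene (46.6), and AT3G48835 (31.0). AT3G61030 and AT3G60950, next by H3 with 89.6 each, are identical over their 1748 bases, yet their H3K27me1 densities were 46.6 and 3.78, which their sequence cannot tell apart. H3K18Ac was highest in AT1G04470 (77.2), AT2G17000, a mechanosensitive ion channel gene (76.5), and ABCB11 (76.4), whose words were repeated to 9.60% at most.

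The limits of the rule cut through a continuum. The member nearest to the transcription limit, at AT3G45840 and AT3G45830, had a density of 0.937, and the fragment just outside, at GLIP1, had 1.02. For H3K27me3 the nearest were AT1G58215 with 9.96 inside and AT5G43175 with 10 outside, for H3K36me3 AT3G48770 with 9.99 and AT3G23510 with 10.01, and for H3K9me2 AT2G37370 with 9.86 and AT2G22440 with 10.01. By distance, AT3G29110 at 2.51 Mb was inside and scpl1 at 2.499 Mb outside. Fragments that met every other limit numbered 908 beyond the transcription limit, 2160 beyond that of H3K27me3 and 2245 beyond that of H3K36me3, and 40 beyond that of H3K9me2.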

How the data were processed

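The authors trimmed 4C reads to 30 bases, aligned them to TAIR10 with bowtie 0.12.7 without mismatches, shared reads with several matches by weight, and deposited unnormalized expected counts for the HindIII and second-enzyme ends of each fragment. Published genomic DNA reads were treated alike and, with published input reads, also deposited in the form of expected counts. The deposited signal values are densities, the percentage of a fragment's bases covered by published ChIP or RNA reads, computed by the authors from 1 library per mark. Further deposited columns give annotated features and distances.

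Fragments within 100 kb of a centromere, within 1 kb of the viewpoint, or without a second-enzyme site under 1000 bp from an end were left out. The methods name NlaIII and a supplementary table NlaIV for 7 viewpoints; NlaIII was used. RPM is reads at HindIII ends per 1000000 on kept fragments. Strata were arm, length quintile of members and steps of 2.5 Mb. Log2 ratios were averaged over A and B and tested over 13 viewpoints by exact sign-flip permutation, with Benjamini-Hochberg adjustment over 3 ratios. Correlations used 100000 permutations. H3K9me2-rich gene fragments numbered 9, too few for strata. Members, lists and comparisons were chosen with earlier results of these data known. Named genes are the 10 members with the most contact, the 5 longest runs, the top 3 by each of 3 densities and those at the limits; gene groups use words of the annotation, of RefSeq on TAIR10.1, whose HindIII fragments matched all deposited ones. Sequences and 30-base words come from that assembly. Replicates are labelled A and B. The procedure was tested on simulated reads with planted ratios. Scripts ran in Python 3.11.15 with pandas 2.3.3, SciPy 1.17.1, matplotlib 3.10.9 and NumPy 2.4.6.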

Additional observations from a re-analysis of the deposited data

Results flagged for a closer look

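The contact ratio to single chromatin states differed between viewpoint groups in 4 of 12 comparisons at an unadjusted exact two-sided permutation p under 0.05, and in none after Benjamini-Hochberg adjustment. Against H3K27me3 gene fragments, the mean log2 ratio was -0.076 ± 0.11 (SD) for 8 viewpoints of the first batch, 6 of them below 0, and -0.31 ± 0.17 for 5 of the later batch, all below 0 (exact permutation p = 0.014, adjusted 0.0559). By enzyme it was -0.036 ± 0.086 for 6 DpnII viewpoints, 4 of them below 0, and -0.27 ± 0.15 for 7 NlaIII viewpoints, all below 0 (exact permutation p = 0.00874, adjusted 0.0524).

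Against transcribed H3K36me3 gene fragments, DpnII and NlaIII viewpoints gave -0.13 ± 0.045 and -0.28 ± 0.091, all 13 below 0 (exact permutation p = 0.00583, adjusted 0.0524). Within the first batch the values were -0.13 for 6 DpnII viewpoints and -0.30 for the 2 NlaIII viewpoints, MEA F6 and MEA F8 (exact permutation p = 0.0357, adjusted 0.107). Within NlaIII they were -0.30 for the MEA pair and -0.28 for 5 viewpoints of the later batch (exact permutation p = 0.714). The MEA pair is 1 place in the genome. Batch and distance of the viewpoint to the centromere cannot be told apart.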

How the results depend on the processing

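The contact ratio to other gene fragments kept its sign and stayed past the threshold under 32 of 34 alternatives (log2 ratio -0.40 without strata to -0.061 under 1 kb among those). The replicate block is counted among them, although it cannot change this ratio. Values over 1.5 times larger came from the local comparison (-0.33) and the stricter rule (-0.37), and smaller ones from log2(RPM + 1) means (-0.13) and from fragments with genomic DNA reads per kb near the median (-0.10, 10 of 13 viewpoints). The share of fragments with reads gave 0.012 instead, a change of sign, and the later batch alone, where 5 viewpoints cannot go below an exact permutation p of 0.0625, gave -0.21. Leaving out replicate A or B gave -0.23 to -0.18. Against H3K27me3 gene fragments the first batch alone gave -0.076 (exact permutation p = 0.102), the later -0.31 (0.0625) and DpnII viewpoints -0.036 (0.406), and one replicate -0.21 to -0.12; without repeated words it was -0.10, with log2(RPM + 1) means -0.094 and without the limit on single fragments -0.43. Against transcribed H3K36me3 gene fragments the later batch gave -0.28 (exact permutation p = 0.0625), and one replicate -0.21 both ways. The relation to viewpoint distance reversed to r = -0.34 without the farthest viewpoints and ran from -0.052 to 0.11 with one replicate. For H3K18Ac the difference was -17.2 with the stricter rule and -6.57 without repeated words, and for H3K27me1 it was 1.75 in the local comparison and 4.19 with genomic DNA reads per kb near the median. The replicate block cancels in the mean of A and B, so its contact ratio of -0.21 is the main value again and no check. With the means of the replicate letters removed, r over 26 libraries was 0.045. A minus B over members correlated between viewpoints by -0.085 to 0.091 in the first batch (28 pairs, mean 0.0022). In the later batch it correlated by 0.034 to 0.164 (10 pairs, mean 0.097). All pairs of the later batch were thus above 0 but not all above 0.1, and the letter was not taken to pair libraries. According to the methods each batch had a lane per replicate, so its viewpoints shared a lane for each letter. The part of the lane in the tests over viewpoints was not tested. The ratio to H3K9me2 gene fragments was not run under any setting. The cause of these changes was not tested.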

Other observations

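The longest member, 45.3 kb on chromosome 5 (chr5:14336839-14382091), was noticed after its values were seen. It overlaps 21 genes, of which 17 are for small secreted proteins of the ECA1 gametogenesis related family. H3 density was 16.9, H3K18Ac 13.1, H3K27me1 9.13 and input 38.5. Its contact over 13 viewpoints had a median of 0.21 on the log2(RPM + 1) scale, against 1.94 over the 653 members kept with both enzymes.

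Along the array of cysteine-rich repeat secretory-like genes on chromosome 4, the median contact fell from 2.93 on the first to 2.01 on the ninth of 9 identical fragments, on the same scale. Genomic DNA reads fell from 4.14 to 2.36. How reads with several matches were shared among these fragments was not tested.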
